A study of Mus musculus with 11 samples.

Results

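The genes described here are 49 listed genes of DNA replication and S-phase entry, listed by name with earlier results of these data known: the MCM helicase and its partners, origin licensing factors, polymerases and primase, the sliding clamp and its loader, single-strand binding proteins, enzymes of nucleotide supply, and a few regulators of S-phase entry. Of these, 47 were measured, among 22180 genes with a value; Rfc4, a clamp loader subunit, and Ccne2, cyclin E2, had no probe set assigned to their symbol alone and are not analysed here. Total RNA came from mouse haematopoietic stem cells (HSCs), the rare bone marrow cells that can rebuild all blood lineages, isolated by flow cytometric sorting and hybridised to Affymetrix arrays. There were 4 groups: mice that received PBS, the saline control (3 arrays); ATRA, all-trans retinoic acid, the active form of vitamin A (3 arrays); polyIC, a synthetic double-stranded RNA that triggers an interferon response, labelled pIC (2 arrays); and ATRA followed by polyIC, labelled RApIC (3 arrays). The labels give no dose, time after injection, age, strain or sorting markers and do not say whether animals were pooled, so p-values measure the spread between these arrays only.

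DNA is copied once per cell cycle. In G1 the origin recognition complex, Cdc6 and Cdt1 load the MCM helicase onto origins; at S-phase entry the kinase Cdc7 and cyclin-dependent kinases recruit Cdc45 and GINS, the helicase opens the duplex, and primase, the replicative polymerases, the clamp and the enzymes that join lagging-strand fragments copy it. Many of these genes are known targets of E2F factors, which cyclin E activity releases from the retinoblastoma proteins. HSCs are mostly quiescent at rest, and interferon and polyIC are known to drive them into cycle, whereas retinoic acid signalling has been linked to their dormancy.

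A feature that the choice of members did not use is the letters around their annotated transcription starts. RefSeq promoter windows on GRCm38.p6 (250 bases before to 50 after an annotated start) were found for 41 of the 49 genes. The E2F letters searched on both strands were TTTCCCGC, TTTGGCGC, TTTCGCGC and TTTGCCGC; matches that overlap each other were counted separately, giving 22 in the member windows. At least 1 match was present for 16 of 41 members (39.0%), against 554 of 16990 genes with both a window and an array value (3.3%) and 1 of 34 genes of mitosis (2.9%), a comparison list. Among the MCM genes Mcm3, Mcm5, Mcm6 and Mcm7 had matches. The 250 bases before the start are shown for Mcm5, Mcm6 and Mcm7, subunits of the helicase ring, for Cdc6, which had the second largest change after pIC, and for Pola1, the catalytic subunit of the primase-bound polymerase, which has the letters but was not called in any comparison. Capitals mark the E2F letters on either strand, and all sequences run 5′ to 3′ in the direction of the gene.
Mcm5: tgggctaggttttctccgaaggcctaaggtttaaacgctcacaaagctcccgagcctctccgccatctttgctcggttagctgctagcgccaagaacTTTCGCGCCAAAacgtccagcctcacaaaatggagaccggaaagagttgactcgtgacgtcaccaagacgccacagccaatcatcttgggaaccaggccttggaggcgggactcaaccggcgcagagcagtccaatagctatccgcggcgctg
Mcm6: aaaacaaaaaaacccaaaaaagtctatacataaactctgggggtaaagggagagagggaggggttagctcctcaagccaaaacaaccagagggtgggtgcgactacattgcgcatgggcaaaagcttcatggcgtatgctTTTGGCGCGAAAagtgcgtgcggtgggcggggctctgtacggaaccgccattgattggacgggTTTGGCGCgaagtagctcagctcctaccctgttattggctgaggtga
Mcm7: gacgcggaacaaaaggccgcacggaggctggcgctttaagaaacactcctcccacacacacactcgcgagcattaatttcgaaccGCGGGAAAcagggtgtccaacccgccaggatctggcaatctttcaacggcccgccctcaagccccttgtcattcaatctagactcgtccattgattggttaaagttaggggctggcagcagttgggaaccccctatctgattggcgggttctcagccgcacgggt
Cdc6: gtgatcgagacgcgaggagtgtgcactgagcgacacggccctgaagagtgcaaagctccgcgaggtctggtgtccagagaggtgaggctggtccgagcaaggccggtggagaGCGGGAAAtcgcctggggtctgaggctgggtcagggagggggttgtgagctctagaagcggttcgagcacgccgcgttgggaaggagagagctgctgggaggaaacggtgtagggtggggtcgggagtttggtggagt
Pola1: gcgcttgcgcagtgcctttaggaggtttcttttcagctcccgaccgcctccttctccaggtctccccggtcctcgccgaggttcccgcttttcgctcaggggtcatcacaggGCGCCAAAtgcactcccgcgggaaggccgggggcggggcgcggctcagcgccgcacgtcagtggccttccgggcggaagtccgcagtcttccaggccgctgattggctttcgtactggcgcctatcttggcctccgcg
These windows lie at chr8:75109259-75109508 (plus strand), chr1:128359706-128359955 (minus), chr5:138171884-138172133 (minus), chr11:98907901-98908150 (plus) and chrX:93632156-93632405 (minus). In Mcm5 a match on the gene's strand beginning 153 bases before the start and one on the opposite strand beginning 149 bases before it share letters and form 1 run, and in Mcm6 such a pair begins 110 and 106 bases before the start, with a separate match 47 bases before it. Of these 5, only for Mcm6 is the start used by the table also the outermost annotated end of the gene. For Mcm7, Cdc6 and Pola1 that end (138172111, 98907709 and 93632387) lies upstream of the marked letters, which so fall inside the annotated gene. For Mcm5 it (75109468) lies downstream of them.

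**Figure D1:**
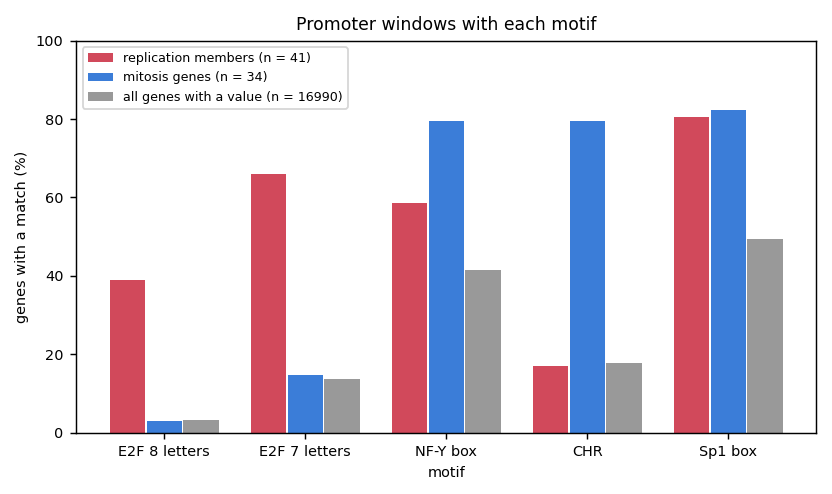
Share of genes, in percent, whose promoter window holds each motif, for the replication genes, the mitosis genes and all genes with an array value. E2F letters were found in 39.0% of replication genes and 2.9% of mitosis genes, and the CHR letters in 17.1% and 79.4%.

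With the first T left off the E2F letters, 27 of 41 members had a match (65.9%), against 13.7% of all genes with an array value and 14.7% of the mitosis genes. Within the 150 bases nearest the start the 8-letter forms were found in 12 of 41 members (29.3%), 0 of 34 mitosis genes and 1.8% of all. Of the 22 matches, 14 began between 100 bases before and 50 bases after the start. Other promoter letters, searched after the values had been seen, were distributed differently: the CHR letters TTTGAA, an element known from genes of mitosis, were present in 7 of 41 members (17.1%), in 27 of 34 mitosis genes (79.4%) and in 17.8% of all. The NF-Y box CCAAT was present in 58.5%, 79.4% and 41.6%, and the Sp1 box GGGCGG in 80.5%, 82.4% and 49.5%. A match is a string of letters and not a measured binding site.

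Expression is given as the deposited log2 intensity of 1 probe set per gene, the brightest, so a difference of 1 is a factor of 2 and levels of different genes are not compared. A gene is called higher or lower where limma's moderated test over all 11 arrays gave a Benjamini-Hochberg adjusted p under 0.05 across the 22180 genes. In bulk RNA a smaller number of cells expressing a gene and less RNA per cell cannot be told apart. Of the HSC markers, Kit, the stem cell factor receptor, had group means of 12.35 on PBS, 12.40 on ATRA, 11.74 on pIC and 11.94 on RApIC. The summed log2 value of 14 HSC markers was 137.8 to 139.6 on the PBS arrays, 138.9 to 139.7 on ATRA, 128.6 to 129.1 on pIC and 128.5 to 136.2 on RApIC; that of 10 erythroid genes was 83.9 to 87.1, 82.4 to 83.2, 94.1 to 95.4 and 81.0 to 91.4; and that of 14 T and NK cell genes was 81.5 to 84.2, 84.0 to 87.4, 94.9 to 102.3 and 83.1 to 109.0. In RApIC replicate 2 the HSC and the T and NK cell lists lay nearer to PBS than in the other RApIC arrays. The erythroid list lay below PBS there and above it in the other 2. Median differences from the PBS means of the HSC, erythroid and T and NK lists were -0.17, -0.29 and 0.04 in replicate 2. They were -0.62, 0.60 and 1.47 in replicate 1 and -0.45, 0.47 and 1.23 in replicate 3. The lowest erythroid sum on RApIC, 81.0, was below all PBS arrays. Over the 47 replication genes the medians were 0.16, 0.21 and 0.20 on RApIC replicates 1, 2 and 3. Single members did set replicate 2 apart, in both directions: Tyms, Tk1 and Pole read highest there (10.00, 8.82 and 10.38, against 9.51, 8.39 and 10.02 or less on the other RApIC arrays) and Ccne1 lowest (7.47, against 8.19 and 8.33). By role, the nucleotide supply genes had medians of -0.04, 0.24 and 0.01. Marker calls are given beside the comparisons, and their part in the results was not tested.

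**Figure D2:**
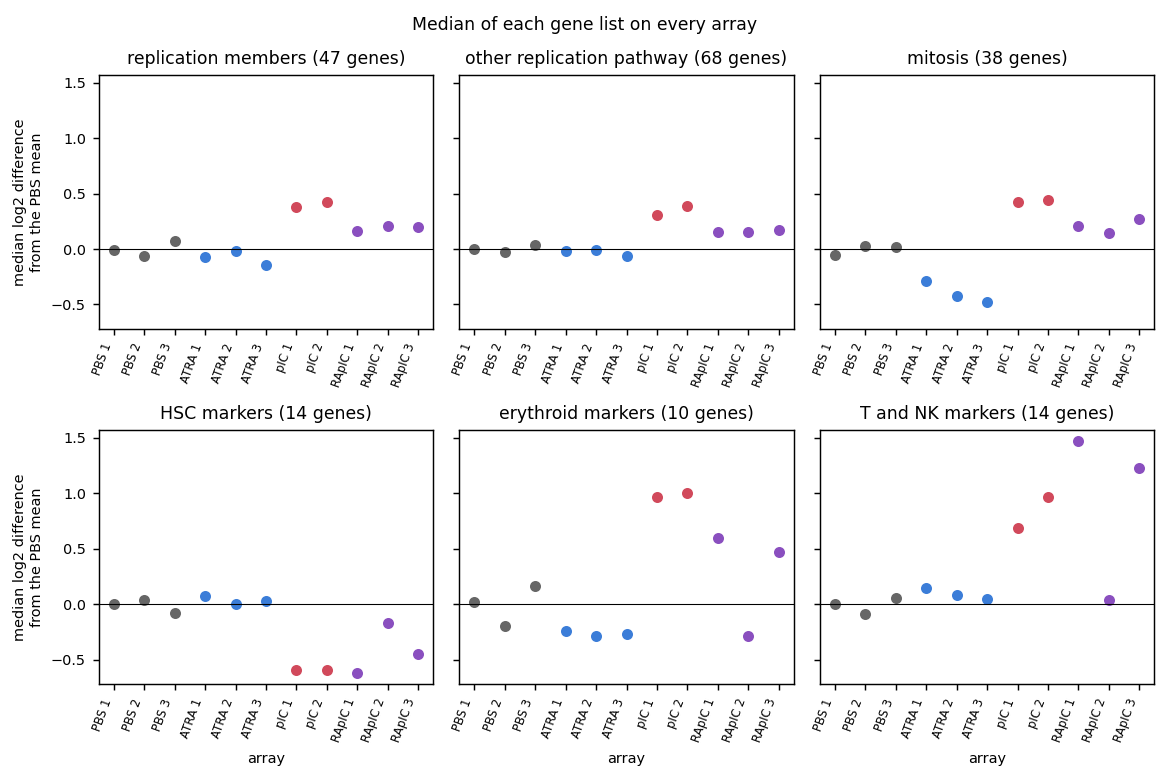
Median log2 difference from the PBS mean over the genes of each list, 1 point per array, by group. For the replication genes the pIC arrays lie at 0.38 and 0.42 and the RApIC arrays at 0.16 to 0.21, while for the mitosis genes the ATRA arrays lie at -0.29 to -0.48.

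By group mean, most replication genes were highest after pIC, lower after RApIC, and lowest after ATRA or PBS. The group mean was highest in pIC for 43 of the 47 genes and in RApIC for the other 4, and lowest in ATRA for 40 and in PBS for 7. For 40 genes the RApIC mean lay between those of PBS and pIC. The shares of all genes with these orders were not computed, and the pIC mean rests on 2 arrays. No member was called in RApIC against pIC or in ATRA against PBS. Per array, the median difference from the PBS mean over the 47 genes was -0.01, -0.06 and 0.07 on PBS, -0.07, -0.02 and -0.14 on ATRA and 0.38 and 0.42 on pIC.

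**Figure D3:**
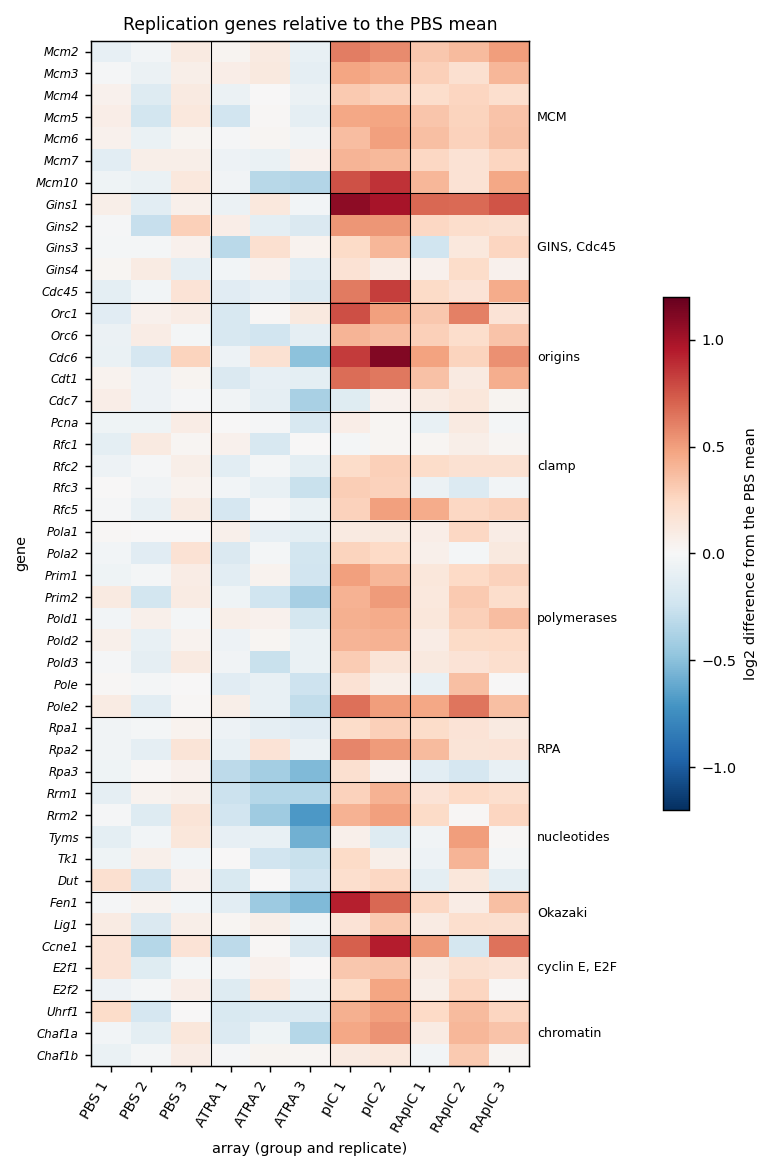
Log2 difference from the PBS mean for each of the 47 measured genes (rows, by role) on each of the 11 arrays (columns, by group). The pIC columns are the highest for most genes, and Pcna, Rfc1, Cdc7 and Tyms are among the rows with no such pattern.

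After pIC, 29 of the 47 genes rose against PBS and none fell. Only Gins1 passed a doubling; the rises ran from 0.26 (Rpa1) to 1.03 (Gins1). The background was 8.94% of all genes called higher and 5.75% called lower, and the median log2 difference was 0.39 over the members and 0.00 over all genes. Both pIC arrays were above all 3 PBS arrays for 41 of the 47 genes, against 23.4% of all genes. The pIC group has 2 arrays, and the count depends on both: without pIC replicate 1 it was 8, without pIC replicate 2 it was 5, without PBS replicate 1 or without PBS replicate 2 it was 19, and after cyclic loess scaling it was 18. In the same comparison 9 of 14 HSC markers were called lower, and 6 of 10 erythroid, 2 of 14 T and NK cell (Gzmb 3.95, Nkg7 1.09) and 2 of 8 monocyte and macrophage markers (Mpeg1 4.34, Ly6c2 3.64) were called higher; of 7 megakaryocyte markers 3 were called higher and 2 lower, and no B cell or neutrophil marker was called. The summed monocyte and macrophage level was 50.4 to 52.1 on PBS and 58.2 to 58.7 on pIC. That rise came from Mpeg1 and Ly6c2: the median difference from the PBS means over the 8 markers was 0.09 and -0.02 on the pIC arrays. Over the 14 T and NK cell genes the median was 0.69 and 0.97, so their rise was not limited to the 2 genes called.

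The helicase genes had the largest called share of any role, 6 of 7. Mcm2, a subunit of the ring, read 10.55, 10.62 and 10.76 on the PBS arrays, 10.68, 10.76 and 10.56 on ATRA, 11.26 and 11.22 on pIC and 10.97, 11.03 and 11.15 on RApIC. Both polyIC-treated groups were above PBS and ATRA without overlap, and the pIC arrays were above RApIC. The pIC rise of Mcm2 was 0.60 ± 0.10 (SE; limma adjusted p = 0.004). Mcm5, a ring subunit whose promoter has overlapping E2F letters, read 10.85, 10.55 and 10.90 on PBS and 11.23 and 11.24 on pIC, a rise of 0.46 ± 0.11 (limma adjusted p = 0.0206). Mcm10, which is not part of the ring and helps to activate it, read 8.35, 8.32 and 8.53 on PBS and 9.16 and 9.27 on pIC, a rise of 0.81 ± 0.12 (limma adjusted p = 0.0033). Of the other ring subunits Mcm3, Mcm6 and Mcm7 rose by 0.46, 0.43 and 0.39, and Mcm4 just missed the threshold (0.29, limma adjusted p = 0.05). Mcm2 and Mcm10 were called under all 18 alternatives, Mcm6 was lost without pIC replicate 2 (adjusted p = 0.0736), Mcm3 and Mcm7 without either pIC array, and Mcm5 also under 2 other settings (adjusted p up to 0.118).

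The partners that turn the MCM ring into a moving helicase rose unevenly. Gins1, a subunit of the 4-protein GINS complex, read 8.50, 8.30 and 8.49 on PBS, 8.36, 8.56 and 8.40 on ATRA, 9.50 and 9.42 on pIC and 9.12, 9.11 and 9.18 on RApIC. The 3 RApIC arrays lay within 0.07 of each other, above PBS and ATRA and below pIC. The pIC rise was 1.03 ± 0.09, 2.04-fold, with the smallest adjusted p among the members (0.000565, limma), and it was called under all 18 alternatives. Gins2 rose by 0.53 ± 0.14 (limma adjusted p = 0.0289), but Gins3 and Gins4 were not called (0.31 and 0.12, limma adjusted p = 0.263 and 0.477). Members of 1 complex thus had unequal changes; the differences among them were not tested. Cdc45, the third component of the active helicase, read 7.93, 8.02 and 8.21 on PBS and 8.67 and 8.88 on pIC, a rise of 0.72 ± 0.11 (limma adjusted p = 0.0039; 0.0521 without pIC replicate 2). The Gins2 call was lost without PBS replicate 1, PBS replicate 2 or either pIC array (adjusted p up to 0.142).

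Among the licensing factors, 4 of 5 genes rose. Cdc6, the ATPase that loads MCM rings together with Cdt1, read 8.31, 8.19 and 8.66 on PBS, 8.33, 8.57 and 7.90 on ATRA, 9.23 and 9.50 on pIC and 8.87, 8.66 and 8.94 on RApIC. The pIC arrays were well above PBS, whereas RApIC replicate 2 read the same as the highest PBS array. The pIC rise was 0.98 ± 0.19 (1.97-fold; limma adjusted p = 0.00971; 0.0936 without pIC replicate 2). Cdt1 read 8.48, 8.38 and 8.47 on PBS and 9.11 and 9.07 on pIC, a rise of 0.65 ± 0.10 that was called under all 18 alternatives (limma adjusted p = 0.00345). Orc1 and Orc6, subunits of the origin recognition complex, rose by 0.63 ± 0.15 and 0.39 ± 0.08 (limma adjusted p = 0.0178 and 0.012). Both were lost without either pIC array, Orc1 also without PBS replicate 1 (adjusted p up to 0.148). Cdc7, the kinase that fires licensed origins, read 8.53, 8.39 and 8.44 on PBS and 8.30 and 8.50 on pIC. Its difference was -0.05 ± 0.11 (limma adjusted p = 0.829) and the groups overlapped.

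At the fork, 5 of 9 polymerase and primase genes, 2 of 3 RPA genes and 2 of 5 measured clamp and clamp loader genes rose. Pole2, a subunit of the leading-strand polymerase epsilon, read 8.21, 7.98 and 8.12 on PBS, 8.18, 8.02 and 7.81 on ATRA, 8.77 and 8.61 on pIC and 8.57, 8.75 and 8.47 on RApIC. Here the RApIC arrays overlapped the pIC arrays, unlike for Gins1 or Cdc6. The pIC rise was 0.58 ± 0.13 (limma adjusted p = 0.0138). Pole, the catalytic subunit of the same polymerase, was not called (0.12 ± 0.12, limma adjusted p = 0.591). Both primase subunits rose (Prim1 by 0.44, Prim2 by 0.47), as did Pold1 and Pold2, the catalytic and an accessory subunit of polymerase delta (0.44 and 0.41). Pola1 read 9.52, 9.51 and 9.51 on PBS and 9.62 and 9.63 on pIC; the groups did not overlap, but the difference of 0.11 ± 0.09 was not called (limma adjusted p = 0.457). Rpa2, the middle subunit of the single-strand binding complex, rose by 0.55 ± 0.11 (limma adjusted p = 0.0114), from 9.06, 8.99 and 9.25 to 9.69 and 9.61. Rpa1, the large subunit, rose by 0.26 ± 0.07 (limma adjusted p = 0.0427), and Rpa3, the small one, was not called (0.12 ± 0.09, limma adjusted p = 0.474).

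Pcna, the ring that clamps polymerases to DNA and a common marker of proliferation, was at a like level in all groups. It read 11.74, 11.74 and 11.88 on PBS, 11.79, 11.78 and 11.60 on ATRA, 11.87 and 11.81 on pIC and 11.70, 11.90 and 11.77 on RApIC, so all 4 groups overlapped. The pIC difference was 0.06 ± 0.09 (limma adjusted p = 0.765). Of the loader that opens the clamp, Rfc3 and Rfc5 rose by 0.30 and 0.39 (limma adjusted p = 0.0467 and 0.0311), Rfc2 was at 0.25 (limma adjusted p = 0.0535) and Rfc1, the large subunit, at 0.00. Of the fork genes called, Pole2, Prim1, Pold2 and Rpa2 were lost only without either pIC array; Pold1 was also lost without PBS replicate 1 and after cyclic loess, and Prim2, Rfc3, Rfc5 and Rpa1 under 7 to 12 of the 18 alternatives (adjusted p up to 0.24).

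Of the 5 genes of nucleotide supply 2 rose, Rrm1 and Rrm2, the large and small subunits of ribonucleotide reductase. Rrm1 read 9.51, 9.66 and 9.68 on PBS, 9.36, 9.28 and 9.28 on ATRA, 9.90 and 10.04 on pIC and 9.78, 9.86 and 9.82 on RApIC. Its groups followed the order ATRA, PBS, RApIC, pIC with no overlap between neighbours, and the pIC rise was 0.35 ± 0.09 (limma adjusted p = 0.0208). Rrm2 read 7.90, 7.76 and 8.06 on PBS, 7.68, 7.48 and 7.22 on ATRA, 8.33 and 8.40 on pIC and 8.14, 7.92 and 8.17 on RApIC. Its pIC rise of 0.46 ± 0.14 only just passed (limma adjusted p = 0.0494) and was lost under 9 alternatives, Rrm1's under 5, including without PBS replicate 1 and without either pIC array (adjusted p up to 0.223 and 0.171). Tyms, thymidylate synthase, read 9.38, 9.47 and 9.64 on PBS and 9.56 and 9.35 on pIC (-0.04 ± 0.19, limma adjusted p = 0.921); a further probe set that the annotation assigns to both Tyms and its pseudogene Tyms-ps was left out. Tk1, thymidine kinase, and Dut, which removes dUTP, were not called (0.16 and 0.22, limma adjusted p = 0.55 and 0.329).

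Fen1, the nuclease that trims lagging-strand flaps, had one of the larger rises. It read 7.82, 7.87 and 7.80 on PBS, 7.70, 7.39 and 7.30 on ATRA, 8.76 and 8.52 on pIC and 8.08, 7.92 and 8.19 on RApIC. The groups again fell in the order ATRA, PBS, RApIC, pIC without overlap, and the pIC rise was 0.81 ± 0.13 (limma adjusted p = 0.00405). A second, dimmer Fen1 probe set gave -0.08, and with the mean of both the call was lost (limma adjusted p = 0.0572). Lig1, the ligase that seals the fragments, was not called (0.23 ± 0.10, limma adjusted p = 0.153).

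Of the regulators of S-phase entry, 2 of 3 measured rose. Ccne1, cyclin E1, read 7.84, 7.34 and 7.84 on PBS, 7.37, 7.69 and 7.51 on ATRA, 8.40 and 8.62 on pIC and 8.19, 7.47 and 8.33 on RApIC. RApIC replicate 2 sat within the PBS range and the other RApIC arrays above it. The pIC rise was 0.83 ± 0.24 (limma adjusted p = 0.0396) and was lost under 9 alternatives, among them the removal of any PBS, ATRA or pIC array (adjusted p up to 0.22). E2f1, an activator of replication genes, read 8.0, 7.69 and 7.82 on PBS and 8.16 and 8.17 on pIC, a rise of 0.33 ± 0.09 (limma adjusted p = 0.0371) that was lost under 11 alternatives, either pIC array among them. E2f2, a related activator, read 6.18, 6.22 and 6.32 on PBS and 6.46 and 6.71 on pIC (0.34 ± 0.12, limma adjusted p = 0.0747). Uhrf1, which passes DNA methylation on to the new strand, read 10.00, 9.58 and 9.78 on PBS and 10.21 and 10.27 on pIC, a rise of 0.46 ± 0.11 (limma adjusted p = 0.0212). Chaf1a, a subunit of the histone chaperone that packs new DNA, rose by 0.50 ± 0.12 (limma adjusted p = 0.0205), and Chaf1b, its partner, was not called (0.12 ± 0.10). Uhrf1 and Chaf1a were lost without either pIC array, Chaf1a also without PBS replicate 1, and both without PBS replicate 2 (adjusted p up to 0.135 and 0.136).

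**Figure D4:**
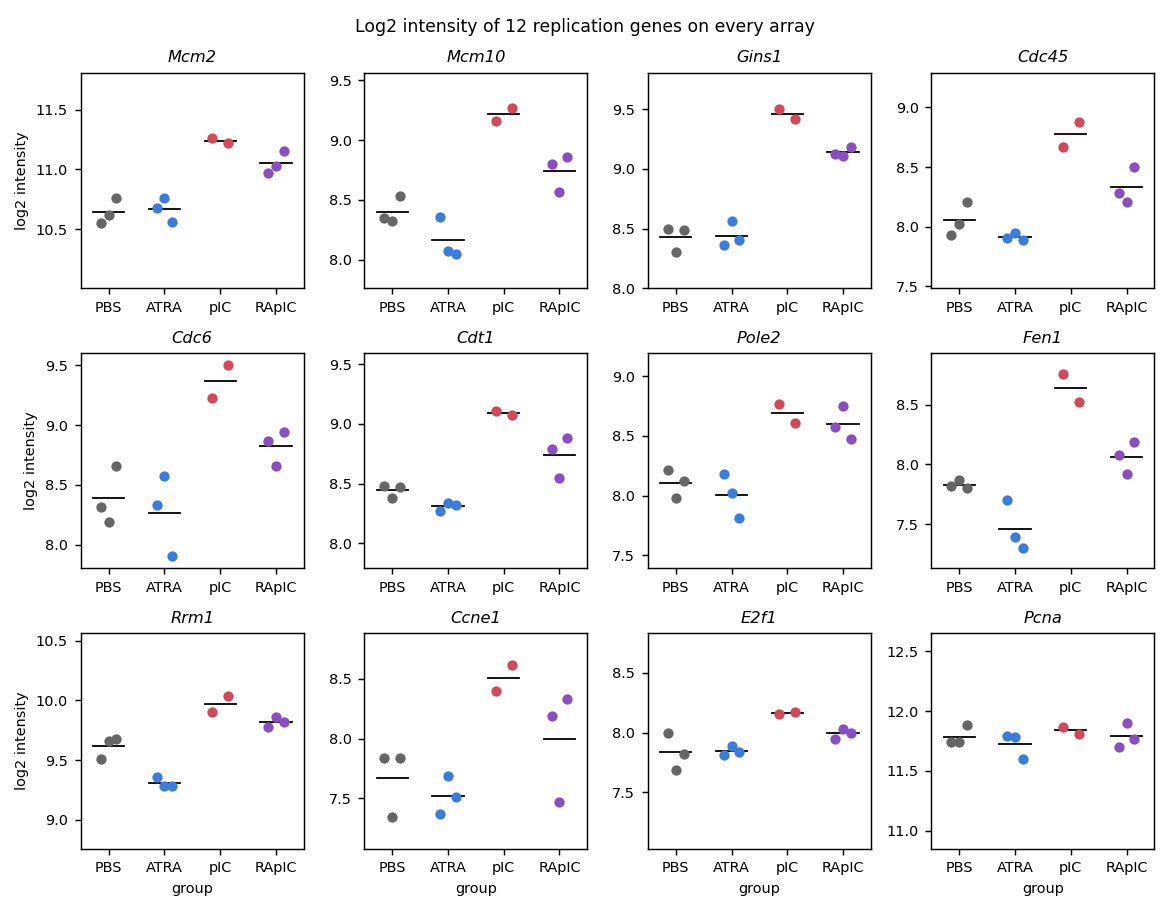
Log2 intensity on each array (points) and the group mean (line) for single replication genes, by group. Gins1, Mcm2 and Cdc45 show pIC above RApIC and RApIC above ATRA, whereas for Pcna the 4 groups overlap.

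Members with and without E2F letters in their window were both called after pIC: 11 of the 16 with a match (median 0.44, range 0.11 to 0.98) and 15 of the 24 measured genes with a window but no match (median 0.37, range -0.05 to 0.83). Mcm5, Mcm6, Mcm7 and Cdc6 are examples called with the letters shown above, and Pola1 is one not called. These are counts over the listed genes, with no test.

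In mice given ATRA first, polyIC again went with higher replication genes: against ATRA alone, 19 of the 47 genes rose in RApIC and none fell, against 3.5% of all genes called higher and 3.71% called lower. All 47 differences were above 0, with a median of 0.29 (0.00 over all genes), and for 36 genes the 3 RApIC arrays were above the 3 ATRA arrays (11.7% of all genes). Gins1 was first again, at 0.70 ± 0.08 (limma adjusted p = 0.00214). Then came Rrm2 (0.62 ± 0.12, limma adjusted p = 0.0168), Fen1 (0.60 ± 0.12, 0.0151), Mcm10 (0.59 ± 0.11, 0.0128), Pole2 (0.59 ± 0.11, 0.0139), Rrm1 (0.51 ± 0.08, 0.00514) and Orc6 and Uhrf1 (both 0.46, 0.00703 and 0.0231). The second, dimmer probe sets of Rrm2 and Fen1 gave only 0.13 and 0.17. That of Rpa1, also called here, gave 0.07, and with the mean of both the Rpa1 call was lost. For Rrm1, Rrm2, Fen1, Orc6, Cdt1, Rpa1, Rpa3 and Pole the ATRA arrays, the reference here, were below all PBS arrays. In ATRA against PBS the second probe sets of Rrm2, Rpa1 and Pole gave 0.07, 0.14 and 0.13. Those of Rpa3 and Fen1 gave -0.21 and -0.18. Among genes of the helicase and licensing, Cdc45 read 7.91, 7.95 and 7.89 on ATRA and 8.28, 8.21 and 8.50 on RApIC (0.41 ± 0.10, limma adjusted p = 0.0376), Cdt1 8.27, 8.34 and 8.32 against 8.79, 8.55 and 8.88 (0.43 ± 0.09, 0.019) and Mcm5 10.54, 10.78 and 10.66 against 11.10, 11.04 and 11.11 (0.42 ± 0.10, 0.0307). Mcm2 rose by 0.39 ± 0.09 (0.0248). Cdc6, with 1 low ATRA array, was not called in spite of a difference of 0.56 ± 0.17 (limma adjusted p = 0.0846). Ccne1 (0.48), Tyms (0.41), Rpa2 (0.23), Pola1 (0.19), E2f1 (0.15), E2f2 (0.14) and Pcna (0.07) were not called either.

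Of the 19 genes, 18 were also among the 29 called after pIC against PBS: all but Rfc2, a clamp loader subunit (0.28 ± 0.07, limma adjusted p = 0.0347). The 2 comparisons contrast different arrays, but they come from 1 fit and share its estimate of spread, so their calls are not independent. The share of all genes called in both was not computed. The other 11 of the 29 were Mcm3, Mcm7, Gins2, Orc1, Cdc6, Rfc3, Pold1, Pold2, Rpa2, Ccne1 and E2f1, whose difference between the 2 comparisons was not called in the interaction given below. Gins1, Orc6 and Rrm1 were called in RApIC against ATRA under all 18 alternatives, and Pole2 was lost only when the fit held only the 2 groups (adjusted p = 0.0664). The count was 8, 9 and 5 without ATRA replicates 1, 2 and 3, 6 without RApIC replicate 1, 4 without RApIC replicate 3, 4 with only the 2 groups in the fit and 29 with array weights. Without RApIC replicate 3, for example, Mcm2, Mcm5, Mcm6, Mcm10, Cdc45, Cdt1, Rrm2, Fen1 and Uhrf1 were not called. In the same comparison 6 of 14 HSC markers were called lower, and 2 of 10 erythroid, 1 of 14 T and NK cell and 2 of 8 monocyte and macrophage markers higher; of 7 megakaryocyte markers 2 were higher and 1 lower, and 1 of 8 neutrophil markers was lower.

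Against PBS, which shares its arrays with the first comparison, RApIC had 4 genes called higher and none lower: Gins1 (0.71 ± 0.08, 1.63-fold, limma adjusted p = 0.00238), Pole2 (0.49 ± 0.11, 0.0465), Mcm2 (0.41 ± 0.09, 0.0335) and Mcm6, a ring subunit (0.33 ± 0.07, 0.0349). The background was 1.61% called higher and 1.51% called lower. The median over the members was 0.22 (-0.01 over all genes), with 44 of 47 above 0. For 26 genes all RApIC arrays were above all PBS arrays (9.82% of all genes). The uncalled members nearest the threshold were Orc6 (0.28, limma adjusted p = 0.0648), Rfc5 (0.33, 0.0821) and Mcm3 (0.30, 0.0901). Other uncalled members with differences of 0.28 or more were Cdc6 (0.44 ± 0.17, limma adjusted p = 0.205), Orc1 (0.36, 0.161), Mcm10 (0.35, 0.11), Mcm5 (0.32, 0.113), Ccne1 (0.32, 0.471), Cdt1 (0.30, 0.0975), Uhrf1 (0.29, 0.14), Cdc45 (0.28, 0.172) and Chaf1a (0.28, 0.19). Rpa2, Rrm1, Rrm2, E2f1, Tyms, Pola1 and E2f2 lay between 0.11 and 0.23, and Pcna was at 0.00. Of the cell type markers 4 of 14 HSC genes were called lower, 1 of 14 T and NK cell genes (Nkg7 0.93) and 2 of 8 monocyte and macrophage genes (Mpeg1 3.24, Ly6c2 3.21) higher, and 3 of 7 megakaryocyte genes higher and 2 lower. Gins1 alone was called under all 18 alternatives. The count was 9 without RApIC replicate 2, the array whose cell type markers stand apart, with Gins1 at 0.72 and Mcm2 at 0.42, and with Mcm3, Mcm10, Orc6, Cdt1, Rfc5 and Ccne1 added; Pole2 then missed the threshold (0.41, limma adjusted p = 0.0533). It was 2 without ATRA replicate 2 or PBS replicate 3, 3 without ATRA replicate 3, and 1 without any one of the other arrays or with only the groups compared.

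**Figure D5:**
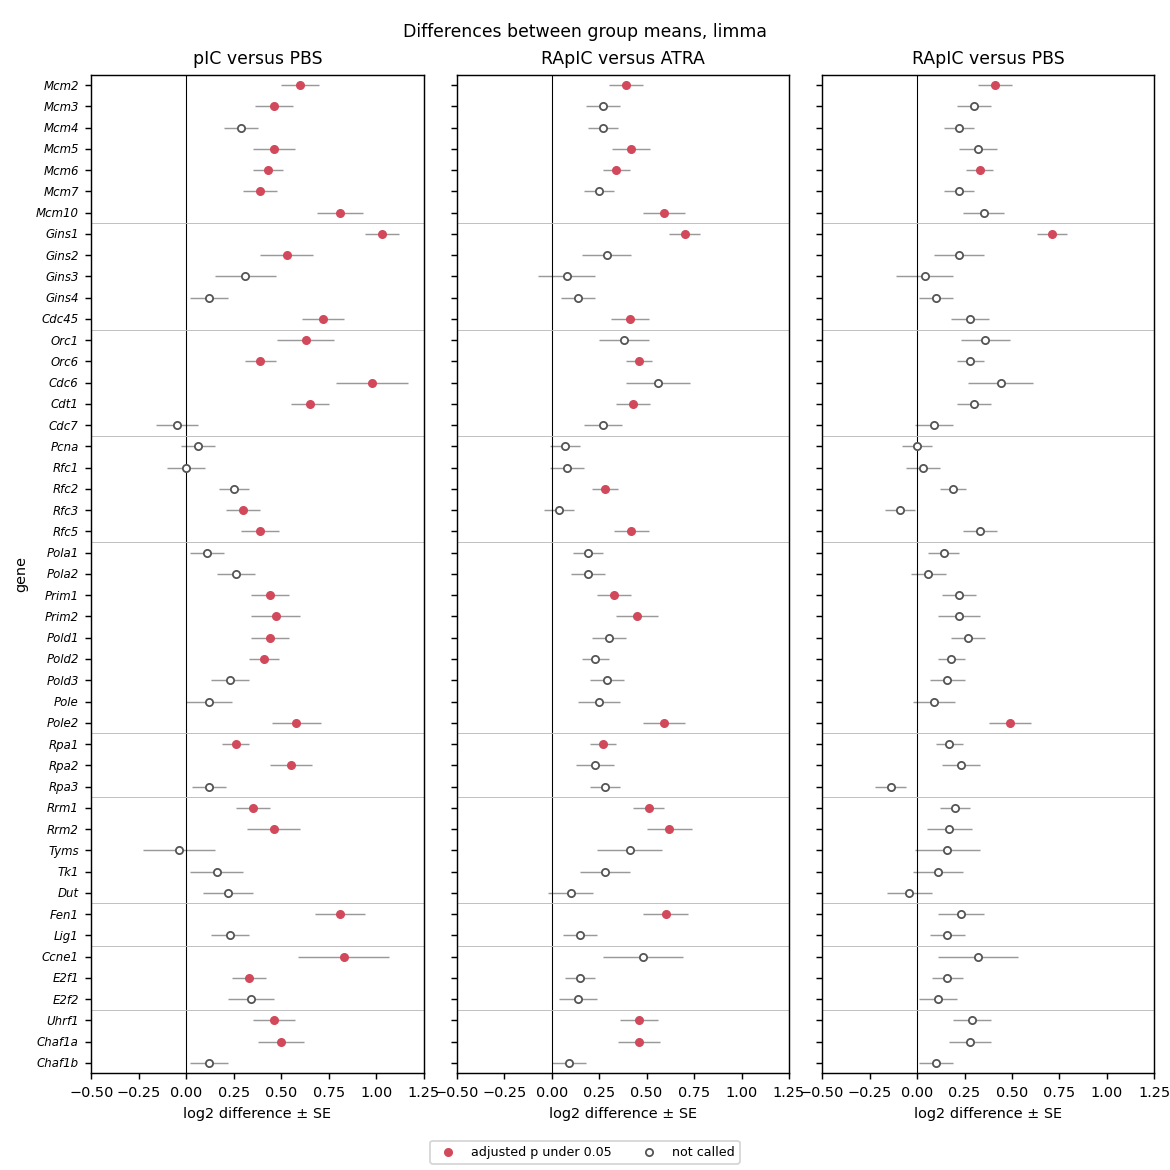
Log2 difference ± SE (limma) for the 47 genes, by role, in pIC against PBS, RApIC against ATRA and RApIC against PBS; filled points have an adjusted p under 0.05. In the 3 panels 29, 19 and 4 genes are called, and Gins1 is called in each.

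ATRA alone gave no call among the members against PBS. Over all genes 1 was called (0.00451%), and at an unadjusted p under 0.05 limma counted 5 of the 47 members and 1508 of all genes (6.80%). Still, 40 of 47 differences were below 0 (50.6% of all genes), with a median of -0.10, and for 8 genes all ATRA arrays were below all PBS arrays (6.08% of all genes). The smallest adjusted p belonged to Rpa3, which read 11.12, 11.18 and 11.22 on PBS and 10.86, 10.76 and 10.64 on ATRA (-0.42 ± 0.08, limma adjusted p = 0.185). Next came Rrm1 (-0.31 ± 0.08, 0.331), Rrm2 (-0.44 ± 0.12, 0.455) and Fen1 (-0.36 ± 0.12, 0.566), and their ATRA arrays too did not overlap PBS. The second, dimmer probe sets of Rpa3, Rrm2 and Fen1 gave -0.21, 0.07 and -0.18. Those of Rpa1 and Pole, also among the 8 genes without overlap, gave 0.14 and 0.13. Among the helicase genes and their partners Mcm2 was at 0.02, Mcm5 at -0.11, Gins1 at 0.01, Cdc45 at -0.14 and Mcm10 at -0.24 ± 0.11. Other named members were Cdc6 (-0.12), Cdt1 (-0.13), Pcna (-0.07), Pola1 (-0.06), Pole2 (-0.10), Rpa2 (0.00), Ccne1 (-0.16), E2f1 (0.01), E2f2 (-0.03) and Uhrf1 (-0.17), while Tyms was at -0.25 ± 0.17 with overlapping groups. No marker of any cell type list was called. The neutrophil and granulocyte precursor markers set ATRA replicate 1 apart, with a median difference from PBS of 1.03 against 0.02 and 0.08 on the other ATRA arrays; without that array the member median was -0.11 and no member was called. With a trended and robust prior Rpa3 was called lower (adjusted p = 0.0467).

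RApIC against pIC compares the levels after polyIC with and without ATRA given first, and so includes any effect of ATRA itself. It gave no call among the members or among all genes (0.0%). At an unadjusted p under 0.05 limma counted 12 of 47 members and 2242 of all genes (10.1%), and with array weights 112 of all genes and none of the members were called. The differences were below 0 for 43 of 47 members (55.3% of all genes), with a median of -0.17, and for 30 genes all RApIC arrays were below both pIC arrays (17.4% of all genes). Fen1 was first (-0.58 ± 0.13, limma adjusted p = 0.252), followed by Rfc3 (-0.39 ± 0.09, 0.257), Mcm10 (-0.47 ± 0.12, 0.279) and Cdc45 (-0.45 ± 0.11, 0.279). The second, dimmer Fen1 probe set gave 0.07. For Rfc3 the RApIC arrays read 8.49, 8.40 and 8.53, overlapping the PBS arrays of 8.56, 8.52 and 8.60, while pIC read 8.86 and 8.84. Cdc6 (-0.54), Ccne1 (-0.51), Cdt1 (-0.35), Gins1 (-0.32), Rpa2 (-0.32), Rrm2 (-0.29), E2f2 (-0.23), Mcm2 (-0.19), E2f1 (-0.17), Uhrf1 (-0.17), Mcm5 (-0.15), Rrm1 (-0.15), Pole2 (-0.09) and Pcna (-0.05) were also lower in RApIC without a call, and Pola1 (0.02) and Tyms (0.20) were not lower. A p above the threshold with 2 pIC arrays does not show that the groups were alike.

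The interaction, the RApIC to pIC difference minus the ATRA to PBS difference, is the test of whether the effect of polyIC differed with ATRA. It gave no call among members or all genes (0.0%), with 1 member and 1390 of all genes (6.27%) at an unadjusted p under 0.05 in limma. The member median was -0.07, and the range ran from -0.42 ± 0.26 (Cdc6) to 0.45 ± 0.25 (Tyms). Gins1 had the smallest adjusted p (-0.33, 0.786 in limma). The 4 nearest the threshold were Gins1, Rfc3, Cdc7 and Rpa2. With SEs of this size, the absence of a call does not show that polyIC acted alike with and without ATRA.

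In the wider replication pathway, 68 measured genes from 3 further lists, the genes called were also mostly higher. After pIC 30 rose and 3 fell (median 0.32), and the others were not called. Of all genes 8.94% were called higher and 5.75% lower, so falls were no more common here than among all genes. Of 29 origin, helicase and fork factors 12 rose, among them Orc2 (0.69 ± 0.12, limma adjusted p = 0.00508), Mcm8, a helicase of DNA repair (0.62, 0.00503), and Top2a, the topoisomerase that untangles copied DNA (0.47, 0.00696). Of 20 S-phase regulators 5 rose and 2 fell. E2f8, a repressor of the E2F family, read 9.87, 9.46 and 9.92 on PBS, 9.11, 9.26 and 9.10 on ATRA, 10.69 and 10.84 on pIC and 10.66, 10.14 and 10.58 on RApIC, without overlap between the polyIC-treated and the other arrays. It rose by 1.02 ± 0.17 after pIC (limma adjusted p = 0.00464), by 1.3 ± 0.15 in RApIC against ATRA (0.00178) and by 0.71 ± 0.15 in RApIC against PBS (0.0346). Cdc25a, the phosphatase that activates S-phase kinases, and E2f4 both rose by 0.68 (0.00197 and 0.00408). Rbl2, the p130 pocket protein associated with quiescence, fell by 0.53 after pIC, from 10.52, 10.72 and 10.68 to 10.13 and 10.10, and was also called lower in RApIC against ATRA (-0.43 ± 0.08, limma adjusted p = 0.013) and against PBS (-0.34, 0.0496). Tfdp2, an E2F partner, fell by 0.49.

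Nucleotide and histone supply had the largest called share of the 3 lists, 13 of 19 higher and 1 lower after pIC. Shmt2, a mitochondrial enzyme of one-carbon supply, rose by 0.77 ± 0.12 (limma adjusted p = 0.00398), Cad, which starts pyrimidine synthesis, by 0.48 (0.00569) and Nasp, a histone chaperone, by 0.78 (0.00621). Tk2, the mitochondrial thymidine kinase, fell by 0.68. Samhd1, which degrades nucleotides and is also known as interferon-induced, read 10.64, 10.77 and 10.65 on PBS, 11.75 and 11.76 on pIC and 11.94, 11.06 and 11.57 on RApIC. It was called higher in RApIC against PBS (0.84 ± 0.17, limma adjusted p = 0.031), as were Shmt2 (0.54, 0.03) and Cad (0.37, 0.0279). In RApIC against ATRA, 15 of the 68 rose and 1 fell, against 3.5% of all genes called higher and 3.71% lower. Top2a (0.61, 0.00241), Dbf4, the activator of Cdc7 (0.49, 0.0271), Timeless (0.43, 0.0278), Fbxo5 (0.42, 0.00484), Asf1b (0.59, 0.00954), Samhd1 (0.74, 0.0295) and Shmt2 (0.46, 0.0321) had the smallest adjusted p of their lists after E2f8.

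For comparison with a later step of the cycle, 38 genes of mitosis were measured. After pIC 21 of 38 rose (median 0.45), against 8.94% of all genes called higher. All 38 mitosis genes were lower in ATRA than in PBS, with a median of -0.41 against -0.10 for the replication genes. For 33 of them all ATRA arrays lay below all PBS arrays (6.08% of all genes). None was called, and at an unadjusted p under 0.05 limma counted 32 (the share of all genes is given with ATRA against PBS above). Ect2, needed for cytokinesis, read 8.79, 8.88 and 8.92 on PBS and 8.40, 8.33 and 8.19 on ATRA (-0.56 ± 0.08, limma adjusted p = 0.0583), and Mki67, the source of the Ki-67 proliferation antigen, 11.27, 11.33 and 11.25 against 10.88, 10.78 and 10.73 (-0.48, 0.105). In RApIC against ATRA 35 of 38 mitosis genes rose (median 0.60; 3.5% of all genes called higher), led by Kif2c (0.97 ± 0.09, limma adjusted p = 0.000567) and Cenpe (1.03 ± 0.10, 0.000921). Against PBS, Cenpe (0.58, 0.0169) and Kif2c (0.48, 0.0176) were the 2 called in RApIC, where 1.61% of all genes were called higher. The difference between the lists was not tested.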

How the data were processed

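Gene expression was measured in sorted mouse HSCs on 11 Affymetrix arrays (PBS, ATRA and RApIC, 3 each; pIC, 2). The deposited table holds log2 intensities, 1 value per probe set and array; the submitters' processing notes name RMA, oligo 1.36.1 and limma 3.28.20, without roles. The number of arrays limits the precision.

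Of 41345 probe sets, 23521 carried 1 gene symbol, 1814 several and 16010 none in the platform annotation; the probe set with the highest mean represented each of 22180 genes. limma 3.58.1 (R 4.3.3) fitted group means over all arrays and was tested on simulated data; Benjamini-Hochberg adjustment ran over all genes within each of 6 contrasts, with a threshold of 0.05. Comparisons sharing a group share its arrays.

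Members and lists were chosen with earlier results of these data known. Named were up to 8 called members with the largest difference per contrast, a fixed set of members of each role, the 4 smallest adjusted p where none was called, and 3 genes per further list. Genes singled out otherwise (all remaining members named by role, Rbl2, Tfdp2, Tk2, Ect2, Mki67, Kif2c, Cenpe and the cell type markers) were chosen after their values were seen. Alternatives were array weights, removal of the dimmest 40% of genes, a replicate block, cyclic loess, the mean of probe sets, fits of the compared groups only, a trended robust prior and removal of each array. Promoter sequences are from RefSeq, GRCm38.p6.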

Additional observations from a re-analysis of the deposited data

How the results depend on the processing

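None of the member counts or of the 129 gene values followed changed to a call in the other direction. Among gene values that were not called, the sign changed 47 times over the alternatives. Members called higher after pIC numbered 29, 18 after cyclic loess, and 5 to 30 with 1 array left out. In RApIC against ATRA they numbered 19, 29 with array weights, 4 with only the groups compared, and 4 to 20 with 1 array left out. In RApIC against PBS they numbered 4, 13 with array weights, 2 after cyclic loess, 1 with only the groups compared, and 1 to 9 with 1 array left out. In ATRA against PBS the count of lower members went from 0 to 1 with a trended robust prior. Residual correlations did not set same-numbered arrays apart. They ran from -0.109 to 0.098 for same-numbered arrays (15 pairs) and from -0.143 to 0.114 for others (30 pairs). With 2 or 3 arrays per group these pairs are not independent, so they cannot decide whether same-numbered arrays were handled together. The labels do not say. With the replicate number as a block the counts were 23, 14 and 1. The cause of these changes was not tested. Over all genes, pIC against PBS called 3260 (60.9% higher) and, after cyclic loess, 2970 (48.8% higher); it called 2083 and 1959 without PBS replicates 1 and 2, and 963 and 664 without pIC replicates 1 and 2. RApIC against ATRA called 1599, 4588 with array weights and 305 with only its groups; RApIC against PBS 690, 3127 with weights, 1212 without dim genes, 70 with only its groups and 1044 with a trended prior; ATRA against PBS 1, 28 with weights, 16 without dim genes, 22 with a trended prior and 4 with the block. No member was among the dimmest 40% of genes, so the dim filter removed none.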
